A study of Mus musculus with 36 samples.

Results

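The circadian clock genes described here are 10 genes of a table of 22447 genes, chosen by their symbols: Per1, Per2, Per3, Nr1d1, Nr1d2, Dbp, Tef, Hlf, Ciart and Arntl. All 10 were found, each on 1 row, and all 10 passed the filter on low values. The study measured RNA from the hypothalamus of 19 mice of 3 to 9 months, 13 of them female, in a series about raising expression of Sim1, a transcription factor gene of the hypothalamus, with CRISPR activation, in which a guide RNA brings a Cas9 without cutting activity and an activating domain to a promoter or an enhancer. WT are 5 wild-type mice, and SH are 4 mice with 1 working copy of Sim1 (Sim1 +/-). PTM are 6 Sim1 +/- mice with an sgRNA to the Sim1 promoter, and ETM are 4 Sim1 +/- mice with an sgRNA to a Sim1 enhancer. The background was B6/FVB, except for the libraries WT F_2 and SH F_3, each from a female of strain B6. The alleles that carry the Cas9 activator and the guides, the promoters that drive them, the hour of dissection and the light schedule are not stated in the labels.

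The clock of mammalian cells is a loop of transcription with a period of about a day. Arntl (also called Bmal1) and its partner Clock switch on genes through E-boxes in their promoters. The proteins of the Per genes, with those of the Cry genes, hold Arntl and Clock back, and Nr1d1 and Nr1d2 (the nuclear receptors REV-ERB alpha and beta) repress Arntl itself. Ciart is a further repressor of the loop. Dbp, Tef and Hlf are related bZIP factors that carry the rhythm to other genes through D-boxes. In mouse tissues Arntl RNA peaks at the phase opposite to that of Nr1d1 and Dbp, so that samples taken at different hours differ in opposite directions in these genes. The pacemaker is the suprachiasmatic nucleus, a small part of the hypothalamus.

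The promoters of 5 members on which the results turn are printed here with the bases before the annotated start (RefSeq, GRCm38.p6), in lower case with matches in capitals, 5′ to 3′ on the strand of the gene: Per1 and Arntl because their levels ran together, Ciart and Hlf for the same reason, and Per3 because its level ran against that of Dbp. The letters searched on both strands were CACGTG (E-box), CACGTT (a variant E-box), TTATGTAA or TTACGTAA (D-box), TGACGTCA (cAMP response element) and AGGTCA (the core of the element bound by ROR and REV-ERB receptors, which is not put in capitals here). The sequences lie at chr11:69098699-69098948, plus strand (Per1), chr7:113207215-113207464, plus strand (Arntl), chr3:95882229-95882478, minus strand (Ciart), chr11:90390918-90391167, minus strand (Hlf) and chr4:151044666-151044915, minus strand (Per3).
Per1: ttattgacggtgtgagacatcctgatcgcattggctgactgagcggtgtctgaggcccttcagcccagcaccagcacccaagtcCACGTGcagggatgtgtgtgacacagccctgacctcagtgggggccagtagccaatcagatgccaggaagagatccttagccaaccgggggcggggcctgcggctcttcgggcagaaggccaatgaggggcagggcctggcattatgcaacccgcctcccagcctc
Arntl: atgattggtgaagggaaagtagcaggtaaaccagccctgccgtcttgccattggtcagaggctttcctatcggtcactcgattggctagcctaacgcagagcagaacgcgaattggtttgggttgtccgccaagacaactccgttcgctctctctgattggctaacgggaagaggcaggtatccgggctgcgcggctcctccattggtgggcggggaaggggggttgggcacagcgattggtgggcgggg
Ciart: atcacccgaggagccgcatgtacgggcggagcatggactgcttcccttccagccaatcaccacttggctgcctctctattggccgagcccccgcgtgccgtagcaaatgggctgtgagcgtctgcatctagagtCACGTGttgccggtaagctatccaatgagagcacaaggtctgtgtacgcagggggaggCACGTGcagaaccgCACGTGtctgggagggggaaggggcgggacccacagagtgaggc
Hlf: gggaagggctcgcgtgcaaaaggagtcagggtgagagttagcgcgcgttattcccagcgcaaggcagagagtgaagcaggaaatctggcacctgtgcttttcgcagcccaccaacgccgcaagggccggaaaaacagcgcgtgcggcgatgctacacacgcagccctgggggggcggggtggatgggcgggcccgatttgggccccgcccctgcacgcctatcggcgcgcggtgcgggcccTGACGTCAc
Per3: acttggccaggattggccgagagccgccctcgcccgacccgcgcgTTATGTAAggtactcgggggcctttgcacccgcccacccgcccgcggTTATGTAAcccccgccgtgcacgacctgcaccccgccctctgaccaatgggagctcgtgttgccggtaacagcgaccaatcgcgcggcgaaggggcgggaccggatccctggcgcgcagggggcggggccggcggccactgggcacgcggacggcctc
Ciart held 3 E-boxes, at -116, -58 and -44 from its start, and Per1 held 1 at -166, besides an AGGTCA core on the other strand at -137 (its other window held no match). An E-box stood before the start in 6.02% of all 32851 promoter windows in the table. Tef, not printed, held an E-box in both of its windows, at -127 and -138. Per3 held 2 D-boxes, at -205 and -158, and 0.931% of all windows held a D-box before the start. Hlf held a cAMP response element at -9, a motif before the start in 1.55% of windows. Nr1d1 held 1 variant E-box at -28, against 3.85% of windows, and Nr1d2 held an AGGTCA core at -77, against 14.02%. The AGGTCA core of Arntl stood after the start, at 32 in the second of its windows, within the longer element AAAGTAGGTCA at 27. The Dbp window held none of these letters. Of the 10 members 9 matched the promoter table. A match describes letters only, and binding by clock factors was not measured.

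Each of the 10 members was expressed in all 19 libraries, and for each of them the ranges of the 4 groups overlapped. The share of all genes with such overlap was not counted. The spread within groups was smallest for Tef, with a residual SD of 0.0762 on the log2 scale of log2(normalized count + 1), which lay at the 0.19 percentile of the 20505 genes tested. It was largest for Hlf at 0.432, followed by Ciart at 0.386 and Per1 at 0.37. The other 6 members lay between 0.147 (Nr1d2) and 0.26 (Dbp), and the median was 0.224 over 12621 genes whose mean was 100 or more. Recovered read totals ran from 14.1 to 84.8 M. The library SH F_3 stood apart from the rest in 12 ribosomal protein genes, whose summed level was 136828 normalized counts there and 41105 to 71589 in the other 18, and it was the lowest library in 4 members (Per1, Hlf, Ciart and Arntl). SH F_4 was highest in 9 striatal genes (46634 summed normalized counts, against a lowest of 9671), followed by PTM F_5 (38348). WT F_2 was highest in 13 genes of the suprachiasmatic nucleus (19968, against a lowest of 9240). It was not far from WT F_1 (18086) and WT F_3 (17812) there. Genes of the cortex and hippocampus, which are other tissue, were highest in PTM M_3 (90964 summed normalized counts over 10 genes) and PTM F_5 (71106), and ran from 18428 to 48849 elsewhere. These 5 libraries are the ones that stood apart in earlier work on these files, and the main results without them are given where they differ. Without them only SH F_1 and SH M_1 remain in the SH group. WT F_4 is not among them, although 10 choroid plexus genes were summed at 113088 normalized counts there, followed by PTM F_5 (62274), PTM M_3 (37404) and WT F_3 (26106), and at 7330 to 11935 in the other 15. The labelled tissue showed all 15 hypothalamic genes listed as its markers, at 26799 to 99821 summed normalized counts, with none at 0. The Sim1 gene itself was measured at 305 to 547 normalized counts in WT, 121 to 330 in SH, 155 to 431 in PTM and 272 to 353 in ETM.

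**Figure D1:**
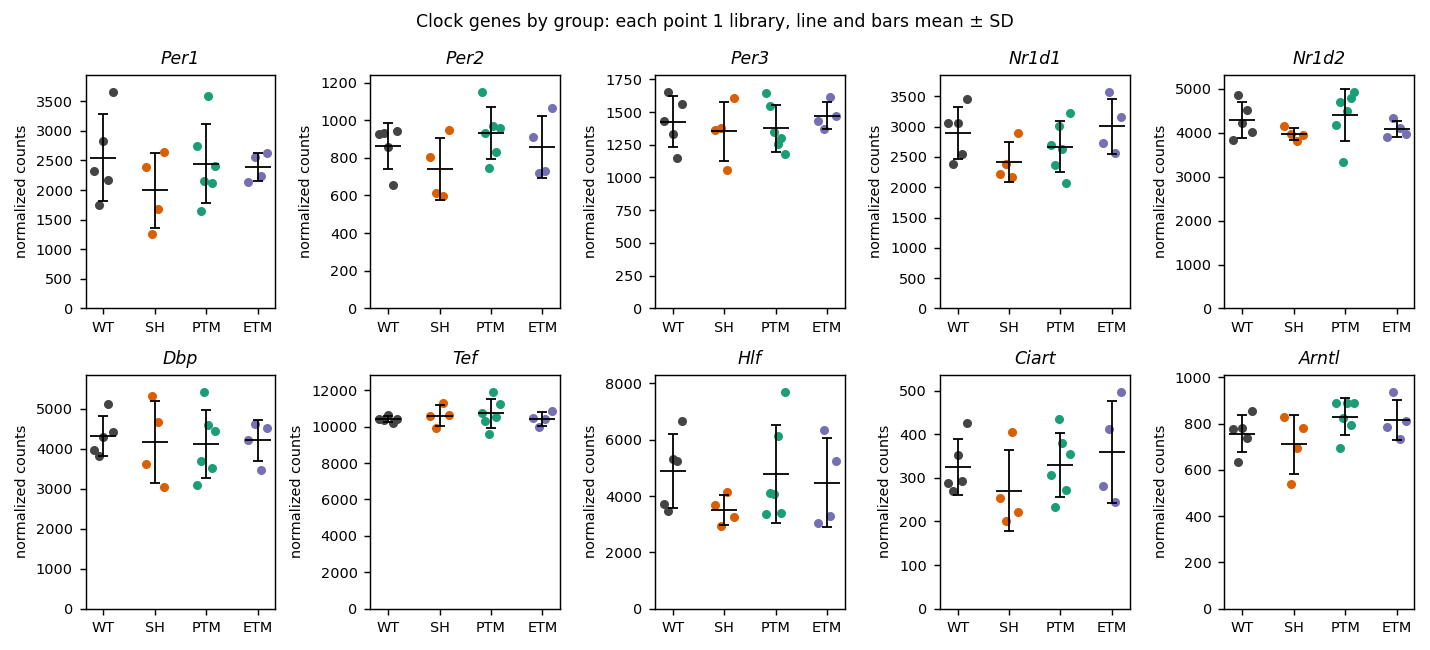
Normalized counts (vertical axis, from 0) of the 10 clock genes in the 4 groups. Each point is 1 library, the line is the group mean and the bars are 1 SD; for every gene the 4 groups overlap, and Tef spans only 9589 to 11892 normalized counts.

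The first comparison asked whether the clock genes differ between mice with 1 working copy of Sim1 and wild-type mice. None of the 10 members passed an adjusted p of 0.05 in SH against WT with limma, edgeR or DESeq2. Limma called 0 of all 20505 genes (0%), edgeR 0 and DESeq2 7. At an unadjusted p of 0.05 limma took 0 members, where 2.02% of all genes were higher and 1.72% lower. Among the Per genes, which are the repressors of the loop and of which Per1 is also switched on quickly by light and by stress hormones, Per1 had the widest range. Per1 was measured at 2328, 1742, 2832, 2175 and 3659 normalized counts in the 5 WT libraries and at 2397, 1266, 1680 and 2637 in the 4 SH libraries. In the 6 PTM libraries it ran from 1642 to 3583 with a median of 2284, and the 4 ETM libraries stood at 2144, 2557, 2242 and 2622. The SH libraries held both low and middle values, and SH F_3 and SH F_4 lay below the WT range. Per1 averaged 1995 ± 634 in SH and 2547 ± 734 in WT (SD, n = 4 and 5), a log2 difference of -0.38 (SE 0.221) that missed the threshold (limma, adjusted p = 0.868; two-sided exact permutation p = 0.254). Per2 stood at 928, 932, 859, 656 and 944 normalized counts in the 5 WT libraries and at 807, 614, 595 and 946 in the 4 SH libraries. Over the 6 PTM libraries Per2 ran from 746 to 1150.3 with a median of 945, and the 4 ETM libraries stood at 909, 719, 729 and 1064. Its 2 lowest libraries in the series were both SH, and its highest was PTM F_1. The difference of SH from WT was -0.24 (SE 0.16), with an adjusted p of 0.868 in limma. Per3 ran from 1059 to 1605 normalized counts in SH and from 1152 to 1654 in WT, with a log2 difference of -0.084 (SE 0.13). Per3 lies wholly inside Camta1 on the same strand in the annotation, and the rule for reads that fall in both genes is not stated.

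Of the REV-ERB receptors, which repress Arntl, Nr1d1 came nearest to the threshold. Nr1d1 was at 3061, 2377, 3052, 2549.8 and 3449.6 normalized counts in the 5 WT libraries and at 2213, 2377, 2173 and 2896 in the 4 SH libraries. In the 6 PTM libraries it ran from 2075 to 3226 with a median of 2667, and the 4 ETM libraries stood at 2729, 3574, 2559 and 3163. In SH, 3 of 4 libraries were at or below the lowest WT library, and the fourth lay within the WT range. Its log2 difference was -0.26 (SE 0.141), with a 95% interval of -0.56 to 0.031 (limma, unadjusted p = 0.0766, adjusted p = 0.868; two-sided exact permutation p = 0.0952). Nr1d2 was 3969.8 ± 141 normalized counts in SH and 4289.9 ± 410.2 in WT (SD, n = 4 and 5), a log2 difference of -0.11 (SE 0.106). The annotated Nr1d1 overlaps Thra on the opposite strand over 14.5% of its length, and the strand setting of the counting is not stated.

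The output factors differed in spread. Hlf was measured at 3712, 3473, 5328, 5265 and 6658 normalized counts in the 5 WT libraries and at 3696, 2947, 4136 and 3249 in the 4 SH libraries. PTM libraries ran from 3376 to 7692 with a median of 4098, and the 4 ETM libraries stood at 3033, 6354, 3287 and 5242. All 4 SH libraries lay at or below 4136, while 3 of 5 WT libraries lay above all of them. The log2 difference of Hlf was the largest of the 10 members, -0.46 (SE 0.255), with a 95% interval of -0.99 to 0.077 and an adjusted p of 0.868 in limma. Dbp had values of 3967, 3821, 4278, 5108 and 4405 normalized counts in the 5 WT libraries and 3607, 5311, 4675 and 3035 in the 4 SH libraries. In the 6 PTM libraries it ran from 3084 to 5410.3 with a median of 4064, and the 4 ETM libraries stood at 4216, 4607, 3476 and 4519. The SH values of Dbp fell inside and on both sides of the WT range, and the means were 4157 ± 1027 in SH and 4316 ± 501 in WT (SD, n = 4 and 5). The log2 difference was -0.073 (SE 0.162). Tef was 10598 ± 567 in SH and 10396 ± 163 in WT, with a difference of 0.025 (SE 0.0837) whose 95% interval, -0.15 to 0.20, was the narrowest of the 10. Dbp overlaps Sphk2 on the opposite strand over 14.4% of its length.

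The repressor Ciart and the activator Arntl completed the set. Ciart reached 288, 269, 353, 293 and 425 normalized counts in the 5 WT libraries and 254, 201.3, 405 and 222 in the 4 SH libraries. The PTM libraries ran from 233 to 434 with a median of 330.1, and the 4 ETM libraries stood at 282, 412, 245 and 496. Most SH libraries were below the WT range, with 1 (SH F_4) near its top. The difference was -0.30 (SE 0.239), adjusted p = 0.868 in limma. Ciart is covered in full by C920021L13Rik on the opposite strand, a gene with a mean of 28.5 normalized counts. Arntl gave 776, 635, 780.5, 739 and 857 normalized counts in the 5 WT libraries and 829.5, 539, 695 and 781 in the 4 SH libraries. In the 6 PTM libraries it ran from 694 to 891 with a median of 857, and the 4 ETM libraries stood at 784, 936, 735 and 813. Leaving SH F_3 aside, the SH values lay inside the WT range. Arntl differed by -0.11 (SE 0.129), adjusted p = 0.885 in limma. In SH against WT, 9 of 10 members had a negative sign, Arntl as well as the members of opposite phase, and their median log2 difference was -0.18, against -0.0070 over all 20505 genes. Without the 5 libraries that stood apart, 6 of 10 were negative and the median was -0.09, with Per2, Per3, Arntl and, as before, Tef above 0. The SH group is then SH F_1 and SH M_1 alone. Beside these signs, the summed level of 13 genes of the suprachiasmatic nucleus, none of them at 0, ran from 13831 to 19968 normalized counts in WT and from 10947 to 12853 in SH. Of these genes 10 of 13 had a negative sign, with a median log2 difference of -0.33, and 0 passed after adjustment in limma. Other lists leaned to 1 side as well. All 10 thalamic and all 10 choroid plexus genes had a negative sign, with medians of -0.71 and -0.80. All 8 microglial genes had a positive sign, with a median of 0.30, and 0 genes of these lists passed after adjustment in limma. The part of any of these lists in the clock genes' differences was not tested.

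The intervals do not exclude sizeable differences in some members, since that of Hlf reaches -0.99 and that of Per1 -0.84 on the log2 scale. Fewer cells that express a gene and less RNA per cell cannot be told apart in these bulk samples.

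**Figure D2:**
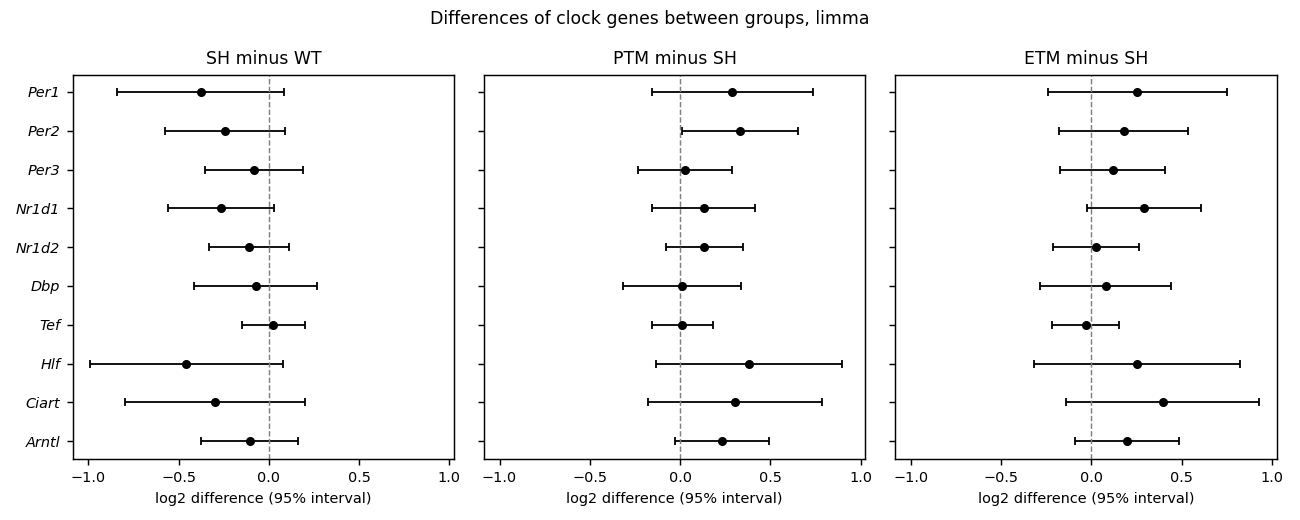
Log2 differences of normalized counts (horizontal axis) of the 10 clock genes for SH minus WT, PTM minus SH and ETM minus SH, from limma over 19 libraries. Points are estimates and bars 95% intervals; only the interval of Per2 in PTM minus SH, 0.01 to 0.65, does not include 0, and its adjusted p was 0.934.

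The guides were compared with SH, the group without them. Both comparisons share the SH libraries, which include SH F_3. With the promoter guide Per2 was 931 ± 138 normalized counts, against 740.4 ± 167 in SH (SD, n = 6 and 4), a log2 difference of 0.33 (SE 0.154) with an unadjusted p of 0.0439 and an adjusted p of 0.934 in limma. The two-sided exact permutation p was 0.0857. This was the 1 member of 10 with an unadjusted p under 0.05 there, where 1.39% of all genes were higher and 2.68% lower. Arntl differed by 0.23 (SE 0.124) and Hlf by 0.38 (SE 0.246), while Dbp, Tef and Per3 differed by 0.010 (SE 0.156), 0.013 (SE 0.0806) and 0.027 (SE 0.125). All 10 signs were positive with a median of 0.18, which covers Arntl and the members of opposite phase alike. Without the 5 libraries that stood apart 5 of 10 were positive, with a median of 0.03 and with SH F_1 and SH M_1 as the only SH libraries. Limma called 0 members and 0% of all genes after adjustment, edgeR also 0 of both, and DESeq2 0 members and 3 genes.

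With the enhancer guide Ciart showed the largest log2 difference from SH, 0.40 (SE 0.256), at an adjusted p of 0.687 in limma. Of its ETM values 245 and 282 lay within the SH range, and 412 and 496 lay above it. Nr1d1 differed by 0.29 (SE 0.151) (unadjusted p = 0.0687, adjusted p = 0.678), Per1 by 0.25 (SE 0.237) and Arntl by 0.20 (SE 0.138). Nr1d2 differed by 0.028 (SE 0.114) and Tef by -0.031 (SE 0.0896). After adjustment limma called 0 members and 0% of all genes, edgeR 0 of both, and DESeq2 0 members and 13 genes. At an unadjusted p of 0.05 limma took 0 members, with 2.9% of all genes higher and 3.77% lower. Of the 30 exact permutation tests over these 3 comparisons, 0 gave a p under 0.05, and the smallest was 0.0857. For no member were the ranges of the compared groups apart. Neither was counted over all genes, so these counts are not read as particular to the members. In the authors' deposited table, whose model is not stated, Ciart had a log2 fold change of 0.71 for the enhancer guide (p = 0.0234, FDR 0.83) and Per2 of 0.38 for the promoter guide (p = 0.0462, FDR 1.00). Over all 4 groups together limma's F test called 0 members and 0% of all genes after adjustment, and at an unadjusted p of 0.05 took 0 members and 2.38% of all genes.

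Other genes of the clock, from 4 lists of 28 genes of which 27 were tested, gave no call either. In SH against WT 0 of 27 passed after adjustment, and at an unadjusted p of 0.05 1 was higher and 2 were lower, against the 2.02% and 1.72% of all genes. In PTM against SH 0 were higher and 1 lower at that p (all genes 1.39% and 2.68%), and in ETM against SH 2 were higher and 1 lower (2.9% and 3.77%), with 0 of 27 after adjustment in either. Like the members, 23 of these 27 genes had a negative sign in SH against WT, with a median log2 difference of -0.094. In PTM against SH 5 of 27 were negative (median 0.076), and in ETM against SH 10 of 27 (median 0.13). Rorb, a receptor that acts on the element repressed by REV-ERBs, is named for its smallest p of these genes over the 4 groups. That p was 0.0279 in limma's F test, with an adjusted p of 0.988. Rorb ran from 1209 to 1656 normalized counts in WT and from 910 to 1081 in SH. Its log2 difference was -0.48 (SE 0.146), with an unadjusted p of 0.00396 and an adjusted p of 0.868 in limma. Rorb is also a gene of the thalamus and of the suprachiasmatic nucleus and stands in both of those lists. Cry1, which encodes a partner of the Per proteins, ran from 887 to 949 in WT, 780 to 944 in SH, 780 to 1169 in PTM and 808 to 870 in ETM. Tsc22d3, Leo1 and Arntl2, the further genes with the smallest p over the groups, had unadjusted p of 0.0936, 0.146 and 0.166 and an adjusted p of 0.988 in limma's F test.

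Across the 19 libraries Arntl did not run against the other members. Of its 9 pairs 7 had a positive r, and the pair with Per1 was the closest of all 45 pairs, at Pearson r = 0.83 (p = 2e-05, adjusted p = 0.0009) and Spearman rho = 0.71 (p = 0.0009, adjusted p = 0.0202), from permutation tests with 100000 resamples, two-sided. SH F_3 was lowest in both genes, WT F_2 was next to it in Arntl and also low in Per1, and the highest Per1 libraries (WT M_1 and PTM F_5) were among the highest in Arntl. With WT F_2 and SH F_3, the B6 animals and the libraries farthest from the median of Arntl, left out, r was 0.70, and as deviations from group means it was 0.87. Without the 5 libraries that stood apart r was 0.62, with an adjusted p of 0.0823.

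For Nr1d1, whose protein represses Arntl, r with Arntl was 0.56 (rho 0.54, adjusted p = 0.0588 for r and 0.0899 for rho, permutation tests). With Dbp it was -0.15 (rho 0.04; p = 0.547), with Per3 -0.06 and with Nr1d2 0.01. Taken as the mean of the other 9 members against Arntl, each as a log2 deviation from its median library, both had the same sign in 15 of 19 libraries. The difference of the 2 deviations ran from -0.19 in SH F_1 to 0.27 in SH F_3, with group medians of 0.12 in WT, -0.02 in SH, -0.02 in PTM and -0.05 in ETM. The hour of dissection could not be judged from these values. Arntl did not run against the other 9 members as a set, and the labels give no hour to compare with.

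**Figure D3:**
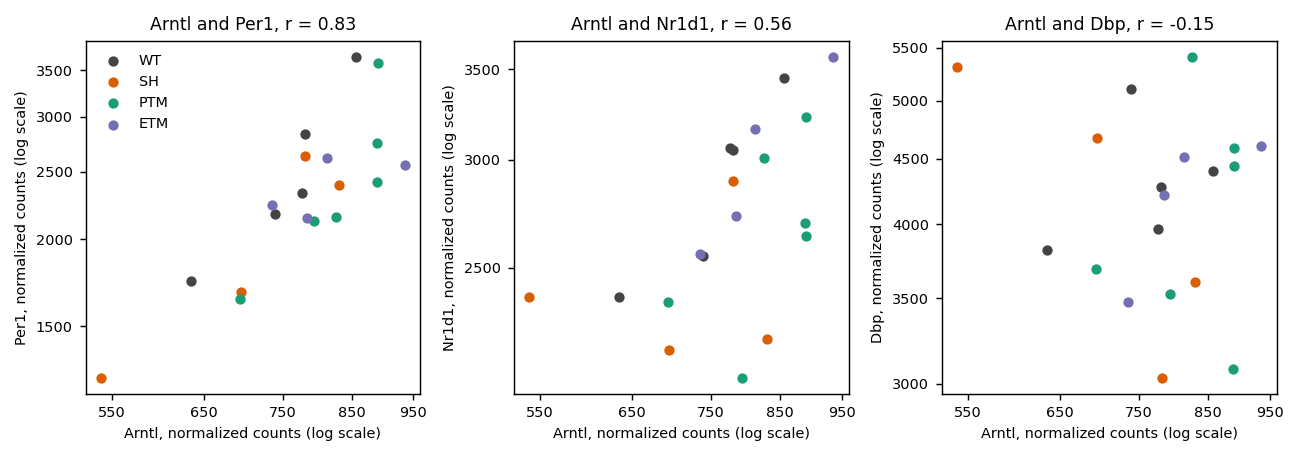
Arntl (horizontal axis) against Per1, Nr1d1 and Dbp (vertical axes) in normalized counts on log scales, 1 point per library, coloured by group. Per1 and Nr1d1 were higher where Arntl was higher (r = 0.83 and 0.56), and Dbp showed r = -0.15.

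Only 1 more of the 45 pairs passed after adjustment: Hlf and Ciart, with Pearson r = 0.70 (p = 0.0011, adjusted p = 0.0238) and Spearman rho = 0.72 (p = 0.00077, adjusted p = 0.0202) in permutation tests. Both were lowest in SH F_3, while PTM M_3 was highest in Hlf and ETM M_3 in Ciart. With WT M_1 and PTM M_3, the libraries farthest from the median of Hlf, left out, r was 0.70. Without the 5 libraries r was 0.71 (adjusted p = 0.0802), and in the authors' stabilized values it was 0.49 (adjusted p = 0.108). Dbp and Per3, the strongest negative pair, had r = -0.60 and rho = -0.60 (adjusted p = 0.0568 and 0.0753, permutation tests). As deviations from group means r was -0.66 (adjusted p = 0.034), and without the 5 libraries -0.64 (adjusted p = 0.0823). In the stabilized values r of this pair was -0.27 (adjusted p = 0.387). Dbp also had r = -0.52 with Per2 (adjusted p = 0.0752, permutation test). Among the bZIP factors Dbp and Hlf had r = 0.43, and Dbp and Tef -0.19. In all, 30 pairs were positive and 15 negative.

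**Figure D4:**
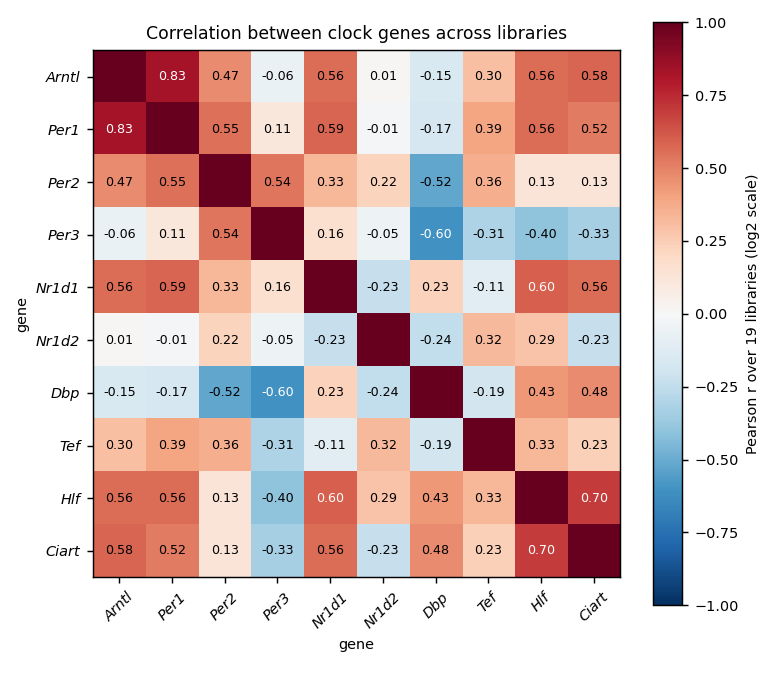
Pearson r between each pair of the 10 clock genes over 19 libraries, on log2(normalized count + 1). Arntl and Per1 (0.83) and Hlf and Ciart (0.70) are the pairs past the adjusted threshold, and the Dbp cells with Per2 and Per3 are the strongest negative ones.

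Genes with the pattern most like Arntl lay outside the clock. Among 13707 genes with a mean of at least 50, over 19 libraries, Eif2ak3 (r = 0.91), Ctr9 (0.91), Cnst (0.91), Pcsk2 (0.91) and Dhx8 (0.91) were the closest, and Tm2d1 (-0.90), Gm266 (-0.90), Pigp (-0.90), BC064078 (-0.89) and Ssr4 (-0.88) the most opposed. Per1 ranked 96 from the top. For Dbp the closest were Rundc3a (r = 0.91), Mlf2 (0.90), Ptp4a3 (0.89), Clec2l (0.89) and Ptms (0.89), and among the most opposed were Pvr (-0.92), Wnt5a (-0.90), Rab27b (-0.89) and Mum1l1 (-0.89). The member nearest to Dbp was Ciart, at rank 1704.

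Several members moved with markers of tissue or cell type. Each member was compared with 18 marker lists over the 19 libraries, 180 relations in all, and 12 passed after adjustment. Of these 12, 6 also passed in the authors' stabilized values, 9 without SH F_3 and 3 without the 5 libraries that stood apart, where 3 of the 180 passed. Those 3 were Hlf with the thalamic genes and Ciart with the neuronal and with the astrocyte genes. Every other one of the 12 relations missed the adjusted threshold without the 5 libraries. Hlf had the closest, with 10 thalamic genes, at Pearson r = 0.89 (p = 1e-05, adjusted p = 0.0018) and Spearman rho = 0.89 (p = 2e-05, adjusted p = 0.0036) in permutation tests. The summed level of the thalamic genes, none of them at 0, ran from 16324 to 52003 normalized counts in WT, 16152 to 27129 in SH, 21877 to 33432 in PTM and 21124 to 54696 in ETM. The libraries highest in these genes, ETM F_2 and WT M_1, held 6354 and 6658 normalized counts of Hlf, and the lowest, SH F_3, held 2947. Hlf was lower where 15 hypothalamic genes were higher (r = -0.74, adjusted p = 0.0069, permutation test) and higher with genes of neurons (0.75) and of the cortex and hippocampus (0.70). The r of Hlf with thalamic genes was 0.90 without SH F_3, and 0.89 without WT M_1 and PTM M_3, the libraries farthest from the median of Hlf. How far the thalamic genes account for the level of Hlf in SH was not tested.

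Ciart ran with 10 neuronal genes (r = 0.78) and thalamic genes (0.73) and against 9 astrocyte genes (-0.78), with adjusted p of 0.0018, 0.0124 and 0.0018 in permutation tests. Arntl had r = 0.83 with the neuronal genes, -0.73 with the astrocyte genes and -0.73 with the ribosomal protein genes, and Per1 -0.68 with the last. Without SH F_3 the adjusted p of the relations of Arntl with the astrocyte and ribosomal lists (r = -0.54 and -0.41) and of Per1 with the ribosomal list (-0.48) missed the threshold, while Arntl and the neuronal genes kept r = 0.73. The summed neuronal level ran from 187190 to 230422 in WT, 159768 to 225340 in SH, 204058 to 267154 in PTM and 207199 to 245752 in ETM, with no gene of the list at 0. Dbp ran with 8 oligodendrocyte genes (r = 0.72, adjusted p = 0.0124, permutation test). That relation missed the adjusted threshold with the stabilized values and without the 5 libraries. No member passed with the genes of the suprachiasmatic nucleus (strongest r -0.49, Dbp), with immediate early genes (0.56, Ciart) or with genes induced by glucocorticoids (0.43, Tef). As deviations from group means 18 relations passed, among them Ciart with the immediate early genes (r = 0.62, adjusted p = 0.0404, permutation test) and Nr1d2 with the microglial genes (r = 0.60, adjusted p = 0.0481, permutation test).

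Ages differed between mice within each group, which allowed a slope with age to be fitted. Dbp ran from 4278 to 5410 normalized counts with a median of 4632 in the 8 mice of 3 to 4 months, and from 3035 to 4607 with a median of 3688 in the 11 mice of 6 to 9 months. The ranges overlapped over a narrow span, and 9 of the 11 older mice were below every younger one. In limma, with sex and group in the fit, the slope of Dbp was -0.075 on the log2 scale per month (SE 0.0211). Its unadjusted p was 0.00224, and its adjusted p of 0.0637 missed the threshold. Per3 went the other way, from 1059 to 1472 with a median of 1292 in the younger and from 1304 to 1654 with a median of 1544 in the older mice. Its slope was 0.052 per month (SE 0.0183, unadjusted p = 0.0104, adjusted p = 0.135, limma). Hlf had a slope of -0.082 (SE 0.0384, unadjusted p = 0.0454, adjusted p = 0.271), and the other 7 members had unadjusted p of 0.0831 or more. At an unadjusted p of 0.05 this made 3 of 10 members, against 17.7% of all genes, and after adjustment 0 of 10 against 2.81%. The 577 genes behind this share were 19 without PTM M_3, 83 without ETM M_3, 35 without the 5 libraries and 1098 without both B6 animals, and 19 to 1067 without each library in turn. Without WT M_1, Dbp had an adjusted p of 0.0188, and without ETM F_2 one of 0.0305, and Hlf one of 0.0296 there (slope -0.12). Without the 5 libraries 0 members were under an unadjusted p of 0.05, with 0.0743 for Dbp (slope -0.057), 0.212 for Per3 (0.030) and 0.741 for Hlf (-0.016) in limma. Genes of the striatum were summed at 13367 to 46634 normalized counts in the younger mice and 9671 to 15467 in the older. The 8 oligodendrocyte genes, with which Dbp ran over all 19 libraries, were summed at 172618 to 243429 in the younger and 116819 to 218688 in the older. The part of either list in these slopes was not tested. Between males and females 0 members differed after adjustment or at an unadjusted p of 0.05 in limma, against 0.039% and 3.14% of all genes.

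**Figure D5:**
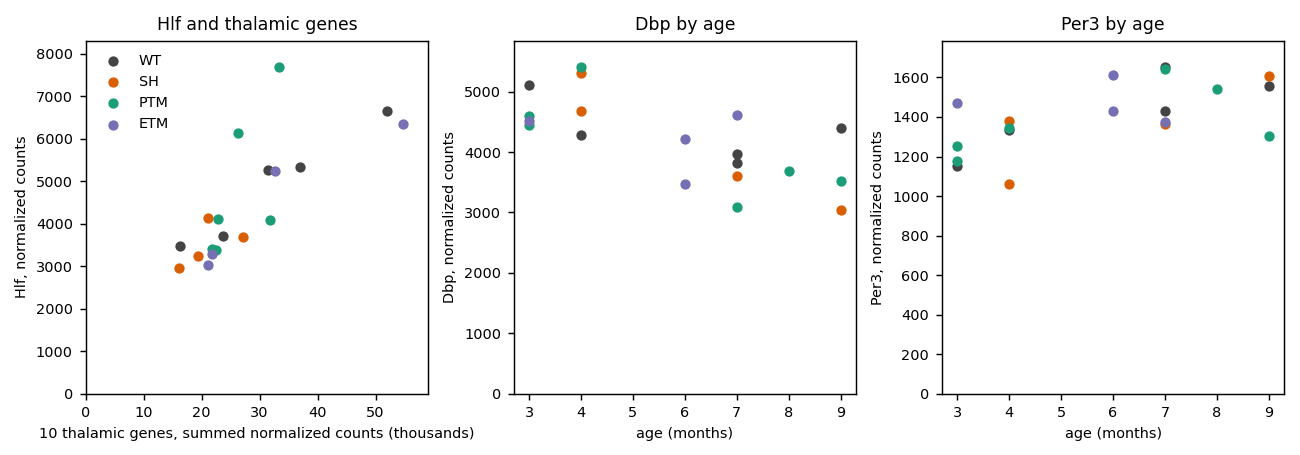
Left, Hlf in normalized counts against the summed normalized counts of 10 thalamic genes; middle and right, Dbp and Per3 in normalized counts against age in months; 1 point per library, coloured by group. Hlf was higher where thalamic genes were higher (r = 0.89 on log2 levels), and from mice of 3 to 4 to mice of 6 to 9 months the median went from 4632 to 3688 for Dbp and from 1292 to 1544 for Per3.

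Binding of Cas9 near the members was read from the authors' 6 peak lists of hypothalamus and of Neuro2A, a mouse neuroblastoma line, which hold 92 to 205 peaks each. No peak overlapped a member. Each list held a peak within 50 bases of Sim1. The nearest peaks to members lay 65486 and 65513 bases from Per3 in the enhancer and promoter guide lists made with the S. pyogenes Cas9 antibody in hypothalamus, 69975 bases from Per2 in the promoter guide list made with the S. aureus Cas9 antibody, and 427348 to 427437 bases from Arntl in all 6 lists. The authors' fold enrichment of the peak near Arntl ran from 5.54 to 90.5. Arntl was measured at 830.5 ± 78.4 normalized counts in PTM, 817 ± 85.7 in ETM and 711 ± 127 in SH (SD, n = 6, 4 and 4), within the spread between libraries as given above.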

How the data were processed

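RNA-seq of hypothalamus from 19 mice was used, with 6 lists of Cas9 ChIP-seq peaks. Per the labels' protocols, RNA was extracted on RNeasy columns and sequenced from Nugen Ovation and Nextera XT libraries. The submitters' processing notes name STAR 2.5.2b, DESeq2 1.16.1, MACS2 2.1.1.20160309, CASAVA 1.8 and the build mm9, without their roles. The gene coordinates nevertheless lie in GRCm38, where 99.9% of 20231 genes matched by symbol overlap their RefSeq gene. Strand setting, annotation and peak controls are not stated.

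The columns hold, per the file headers, the authors' normalized counts, a signal equal here to reads divided by 1 factor per library, and their stabilized log2 values. Whole reads were recovered, within 0.0505 normalized counts, for at least 99.4% of genes per library. Over 12621 genes, sex, strain and age class (up to 4 months or above) accounted for 44.9% of the variance of log2 normalized counts but for 0.242% of that of the stabilized values, which were therefore not used for age. The authors' deposited table also gives log2 fold changes, p-values, an FDR and the percent GC of each gene, the last not used here. Per the file headers, the peak lists give pileup signal, fold enrichment as a ratio and -log10 q-values.

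Log2(normalized count + 1) was tested in limma 3.58.1 (R 4.3.3, trended prior) for 20505 genes averaging 1 or more. All 19 libraries entered 1 fit with sex and group, leaving 14 residual degrees of freedom, and age was tested as a slope added to that fit. Adjustment was by Benjamini and Hochberg over all genes tested, or over the 45 pairs or 180 relations of a family. Two-sided permutation tests were exact between groups and used 100000 resamples for correlations (SciPy 1.17.1). Alternatives were a pseudocount of 5, other filters on low values, the recovered reads in edgeR 4.0.16 and in DESeq2 1.42.0, other covariates and sets of libraries, and leaving out each library. All 3 tools were also run on simulated data with known changes. Alternatives for age and marker lists were chosen after seeing the data.

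The 10 members and all gene lists were chosen with earlier results of these data known. Named beside the members are the 6 other clock genes with the smallest p over the 4 groups, the 5 genes most like and the 5 most unlike Dbp and Arntl, up to 2 genes of each other list, and Sim1, except for genes that are not reported here. The labels name the libraries as separate mice, and p-values measure the spread between these libraries.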

Additional observations from a re-analysis of the deposited data

How the results depend on the processing

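No member passed an adjusted p of 0.05 in any of the 6 comparisons under any of the 13 planned settings or without any 1 library. The number of members at an unadjusted p of 0.05 moved from 0 to 2 in SH minus WT with the stabilized values or with only the 2 groups compared, and to 1 in females only. Of all 20505 genes the main fit there took 415 higher and 353 lower, and the stabilized values 954 and 968. With only the 2 groups the numbers were 386 and 426, and in females only 431 and 406. In PTM minus SH the number of members moved from 1 to 0 with only the 2 groups compared, without both B6 animals, without the 5 libraries that stood apart and with a replicate block. All genes went from 286 higher and 550 lower to 123 and 330, 282 and 372, 199 and 245, and 248 and 481, in that order. In ETM minus SH the number of members moved from 0 to 1 with edgeR, the stabilized values, no sex covariate and females only. All genes went from 594 higher and 774 lower to 579 and 874, 278 and 410, 898 and 1027, and 710 and 676, in that order. Leaving out each library gave 0 to 3 such members in SH minus WT, 0 to 2 in PTM minus SH and 0 to 2 in ETM minus SH. Of all genes, 275 to 1029 were then higher and 213 to 1007 lower in SH minus WT. These numbers were 210 to 832 and 375 to 1060 in PTM minus SH, and 196 to 1430 and 417 to 1413 in ETM minus SH.

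Signs of some log2 differences turned between settings. Since no member passed the adjusted threshold in any comparison, none of these differences had passed it. The setting without the 5 libraries keeps only SH F_1 and SH M_1 in the SH group. Without the 5 libraries that stood apart, Per3 (0.10), Arntl (0.039) and Per2 (0.035) turned in SH minus WT, Nr1d1 (-0.014), Per1 (-0.19), Tef (-0.034), Per3 (-0.0032) and Arntl (-0.020) in PTM minus SH, and Per1 (-0.077), Per3 (-0.011) and Per2 (-0.050) in ETM minus SH. In females only Dbp turned in all 3 comparisons (0.069, -0.13 and -0.022). In PTM minus SH Dbp also turned with the stabilized values (-0.019), without a sex covariate (-0.0031) and with sex and age as covariates (-0.023), and Tef without both B6 animals (-0.016). With a replicate block Tef (-0.026) and Per3 (-0.032) turned in PTM minus SH, and Nr1d2 (-0.066) and Per2 (-0.025) in ETM minus SH. Same-numbered libraries correlated at -0.23 to 0.45 over 20 pairs, 14 of them over 0.1, with a median of 0.26 against -0.050 over the 114 pairs of other numbers. Since 6 of the 20 were at or below 0.1 and the labels give the numbers no meaning, they were not taken to pair the animals. Same-numbered mice were of the same sex and often of like age. The F_1 mice were 6 to 7 months old, F_3 mice 4, M_3 mice 3 and M_1 mice 6 to 9. The part of age or of a shared cohort in these correlations was not tested. Leaving out each library gave ranges across 0 for Tef (-0.010 to 0.055), Per3 (-0.17 to 0.027), Arntl (-0.19 to 0.020) and Dbp (-0.19 to 0.048) in SH minus WT, for Tef (-0.022 to 0.047), Per3 (-0.080 to 0.12) and Dbp (-0.12 to 0.13) in PTM minus SH, and for Hlf (-0.015 to 0.42), Nr1d2 (-0.017 to 0.053), Tef (-0.059 to 0.0014) and Dbp (-0.069 to 0.19) in ETM minus SH. The causes were not tested.

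The r of Arntl with Per1 was 0.62 without the 5 libraries (adjusted p = 0.0823) and 0.74 to 0.85 without each library in turn. The r of Hlf with Ciart was 0.49 with the stabilized values and 0.71 without the 5 libraries, neither of them past the adjusted threshold, and 0.66 to 0.75 without each library. The number of pairs that passed was 0 without the 5 libraries, where 14 remain, and 1 to 8 without each library. By age 0 to 2 members passed without each library. Every member stood at 201.3 normalized counts or more in every library, at a depth of 14.1 to 84.8 M reads. Normalized counts are not reads: 1 read stood for 0.361 (WT F_4) to 2.14 (PTM F_2) of them.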
